A study of Talpa occidentalis with 24 samples.

Results

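The regions described here are promoter segments of the mole testis, or of the testicular part of the female ovotestis, that were in a bivalent or Polycomb-repressed state in the ovarian part of the ovotestis. There were 218 such segments among 15207 testicular promoter segments. They were chosen by the chromatin states themselves. A promoter segment of at least 400 bp in either testicular tissue was kept when at least 50% of its bases were bivalent promoter or Polycomb repression in the ovarian part, and overlapping segments were merged. Scaffolds 15 and 18 of the talOcc4 assembly were left out; with them the count would be 379, and with no minimum length 361. The states inside the segments are therefore given as a description. Promoter state in either testicular tissue admitted a segment, so the split into shared segments and segments of 1 tissue also follows in part from the rule. The rule did not use the states outside the segments, their position or their distance to enhancers, although flanks adjoin the chosen bins.

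Histone ChIP-seq was done on gonads of wild-type Iberian moles, Talpa occidentalis, on postnatal day 7. In this species females develop ovotestes. The 3 tissues were the testicular part of the female ovotestis (female testicular part), the testis of males (male testis) and the ovarian part of the female ovotestis (ovarian part). Each tissue has 8 libraries, 2 for each of 4 marks: H3K4me3, H3K4me1, H3K27ac and H3K27me3. The authors reduced them to 1 segmentation per tissue, which gives each bin of 200 bp 1 of 7 state names. No difference between tissues could therefore be tested against replicates, the depth is unknown, and intervals in brackets are Wilson 95% intervals that cover counting alone. Chromatin came from fixed gonad tissue, and the number of animals behind a library is not stated. The tissues are mixtures of cell types, so a state held by few cells and a state absent from the tissue cannot be told apart. No gene is placed on talOcc4 by the annotations used here, so regions are given by position and no marker gene could be used to check the tissue labels.

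Polycomb complexes deposit H3K27me3 and keep developmental regulators silent in tissues where they are not needed. A promoter with both H3K27me3 and the activating mark H3K4me3 is called bivalent, a form typical of CpG-rich promoters of developmental genes that are silent or lowly expressed but open to activation. In the mammalian gonad the system bears on sex determination, since loss of the Polycomb subunit CBX2 leads to ovarian development in XY mice.

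The 218 segments are 1.43% of the 15207 tested, a share fixed by the rule, from which nothing is read. Taken tissue by tissue, 138 of 13551 promoter segments of the female testicular part (1.02%) and 141 of 13496 of the male testis (1.04%) were bivalent or Polycomb in the ovarian part. Starting from ovarian promoters, 605 of 15724 ovarian promoter segments (3.85%) were bivalent or Polycomb in the female testicular part, and 747 (4.75%) in the male testis. Between the testicular tissues, 284 segments of the female testicular part (2.1%) were bivalent or Polycomb in the male testis and 251 of the male testis (1.86%) in the female testicular part. The ovarian part had the most promoter segments, and the part of that difference in these shares was not tested.

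The ovarian states of the segments, by which they were chosen, are given as a description. Of the 218 segments, 145 (66.5%) were bivalent or Polycomb over their whole length in the ovarian part. Among the other 14989 testicular promoters, 14924 (99.6%) had no such base there. At the limit of the rule, 45 segments held exactly 50%, and 7 of the segments left out held between 40% and 46.2%. Bivalent bases were the larger part in 98 segments (45.0% [38.5 to 51.6]) and Polycomb bases in 99 (45.4% [38.9 to 52.0]), with equal amounts in 21. Their lengths ran from 400 to 7000 bp around a median of 600 bp, and 106 had the minimum of 400 bp, at which the share of a state can only be 0%, 50% or 100%. The median of the other testicular promoters was also 600 bp. The bivalent group had a median of 600 bp and the Polycomb group one of 400 bp.

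The description of these promoters as testicular held for both testicular tissues in fewer than all of them. Promoter state was found in both in 93 segments (42.7% [36.3 to 49.3]), in the female testicular part alone in 61 (28.0%) and in the male testis alone in 64 (29.4%). The share found in both was 27.7% with no minimum length and 57.4% with a minimum of 1000 bp. In 75 segments at least 50% of the bases were promoter in both. The like share over all 15207 testicular promoter segments is not given here, so nothing is read from the 42.7%. Those 15207 were merged from 13551 segments of the female testicular part and 13496 of the male testis. Of the 64 segments of the male testis alone, 56 (87.5% [77.2 to 93.5]) were bivalent or Polycomb over at least 50% of their length in the female testicular part. Of the 61 of the female testicular part alone, 49 (80.3% [68.7 to 88.4]) were so in the male testis. Over all promoter segments of each tissue, whatever the state of the other, the same condition held in 1.86% and 2.1%, as given above. These are no matched base, since the 64 and the 61 were split off for having no promoter state in the other tissue, so nothing is read from the difference. The most frequent combination over all bases was bivalent in the female testicular part, promoter in the male testis and bivalent in the ovarian part, with 14.7% of the 163.4 kb. Promoter in both testicular tissues and bivalent in the ovarian part followed with 13.8%, and promoter in the female testicular part with bivalent in the male testis and the ovarian part with 10.9%.

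Segments shared by both testicular tissues were more often bivalent than repressed in the ovarian part. Bivalent bases were the larger part there in 52 of 93 shared segments (55.9% [45.8 to 65.6]), against 22 of 61 (36.1% [25.2 to 48.6]) of the female testicular part alone and 24 of 64 (37.5% [26.7 to 49.7]) of the male testis alone. The intervals overlap.

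**Figure D1:**
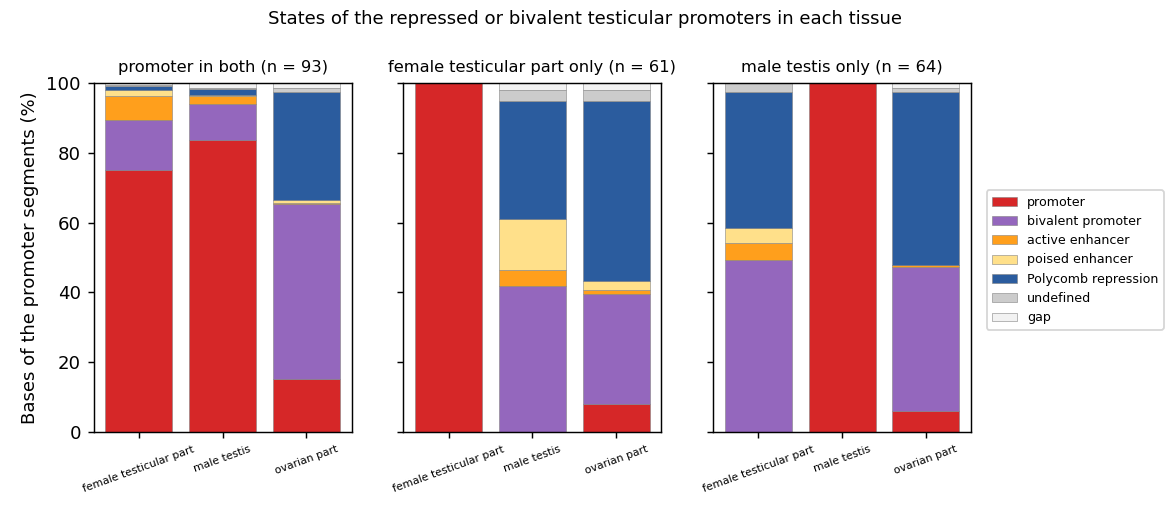
Stacked bars give the percent of bases of the promoter segments in each of 7 chromatin states, in the female testicular part, the male testis and the ovarian part, for 93 segments with promoter state in both testicular tissues, 61 in the female testicular part alone and 64 in the male testis alone. The rule fixes the promoter state in 1 tissue and the blue and purple share of the ovarian bars. In the segments of the male testis alone the female testicular part has 49.3% bivalent and 39.0% Polycomb bases, against 41.5% and 49.8% in the ovarian part.

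The longest segments show how the change looks along the chromosome. By a fixed rule the 10 longest segments with promoter state in both testicular tissues and the 5 longest of the others are named. The longest lies on scaffold 14 at 8961201 to 8968200, 7000 bp. It was promoter over 100% of its length in the female testicular part and 57.1% in the male testis, against 40% in the ovarian part, where another 57.1% was bivalent. The male testis also had 42.9% of bivalent state here, so the female testicular part was the tissue with the fullest promoter. In the 10 kb on each side, active states (promoter or active enhancer) covered 68% in the female testicular part, 41% in the male testis and 40% in the ovarian part.

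A second segment of scaffold 14, at 48413001 to 48418600, lay in a neighbourhood that differed as a whole. Its 5600 bp were promoter over 78.6% in the female testicular part and 100% in the male testis, against 25% in the ovarian part, which had 57.1% bivalent and 14.3% Polycomb state. In the flanks of 10 kb, bivalent and Polycomb states covered 0% in the female testicular part and 0% in the male testis, against 99% in the ovarian part. The longest unbroken ovarian run of these states that the segment touches was 16800 bp long. In all, 5 distal active enhancers seen in testicular tissue and not in the ovarian part lay within 50 kb, with 0 of the opposite kind.

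On scaffold 7 at 107968601 to 107972600, 4000 bp, promoter state covered 95% in the female testicular part and 25% in the male testis, and 0% in the ovarian part, which was 85% bivalent and 15% Polycomb. The male testis was intermediate here, with 60% bivalent and 15% Polycomb bases. On scaffold 3 at 80220401 to 80223600, 3200 bp, both testicular tissues were promoter over 100%, and the ovarian part was promoter over 43.8% and bivalent over 56.2%. Active states covered 68% of its flanks in the female testicular part, 65% in the male testis and 11% in the ovarian part. It is the first of 3 segments within 7200 bp, all promoter in both testicular tissues.

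Several named segments were Polycomb rather than bivalent in the ovarian part. On scaffold 9 at 24141801 to 24144000, 2200 bp, the male testis was promoter over 100%, the female testicular part was 72.7% active enhancer and 18.2% promoter, and the ovarian part was Polycomb over 100%. Its flanks were nonetheless mostly free of Polycomb states in every tissue, with 0% in the female testicular part, 0% in the male testis and 14% in the ovarian part, so the repressed stretch of 2800 bp was local. On scaffold 8 at 28728401 to 28731000, 2600 bp, promoter state covered 38.5% in the female testicular part and 92.3% in the male testis, against 0% in the ovarian part, which was 84.6% Polycomb. On scaffold 3 at 1864601 to 1867000, 2400 bp, it covered 33.3% in the female testicular part and 100% in the male testis, and the ovarian part was 50% Polycomb with 25% each of poised enhancer and undefined state.

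The other 3 of the 10 were mainly bivalent in the ovarian part and less fully promoter in the female testicular part than in the male testis. The segment of scaffold 2 at 32426001 to 32428200 was promoter over 27.3% and bivalent over 63.6% in the female testicular part. It was promoter over 100% in the male testis, with 90.9% bivalent state in the ovarian part. That of scaffold 2 at 32694401 to 32696400 was promoter over 30% and bivalent over 70% in the female testicular part. It was promoter over 100% in the male testis, with 100% bivalent state in the ovarian part. In both, the female testicular part was thus mostly bivalent, like the ovarian part. Both lie in a stretch of scaffold 2 with much bivalent state in every tissue, described below. The segment of scaffold 1 at 31976401 to 31978200 was promoter over 66.7% in the female testicular part and 88.9% in the male testis. The ovarian part had 77.8% bivalent and 22.2% Polycomb state there.

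Among the 5 segments of 1 testicular tissue, the one on scaffold 5 at 78940801 to 78942800, 2000 bp, lay in 20600 bp of unbroken promoter and active enhancer state, the longest such run of the female testicular part around any of the segments with promoter state there. It was promoter over 100% in the female testicular part and bivalent over 100% in the male testis. In the ovarian part 40% was bivalent, 30% Polycomb and 30% poised enhancer. Active states covered 90% of its flanks in the female testicular part, 21% in the male testis and 36% in the ovarian part. On scaffold 6 at 24646001 to 24647800, 1800 bp, the opposite held: the segment was promoter over 100% in the female testicular part but its flanks were bivalent or Polycomb over 84% in the female testicular part, 94% in the male testis and 82% in the ovarian part. On scaffold 9 at 54190001 to 54192200, 2200 bp, and on scaffold 1 at 41599201 to 41600800, 1600 bp, promoter state covered 100% in the male testis and 0% in the female testicular part and the ovarian part. The female testicular part shared the ovarian states there, with 54.5% bivalent and 45.5% Polycomb on scaffold 9 and 62.5% and 37.5% on scaffold 1. The last, on scaffold 3 at 139725401 to 139727200, 1800 bp, was promoter over 100% in the female testicular part, 0% in the male testis and 33.3% in the ovarian part. The male testis had 33.3% bivalent and 55.6% Polycomb state there.

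**Figure D2:**
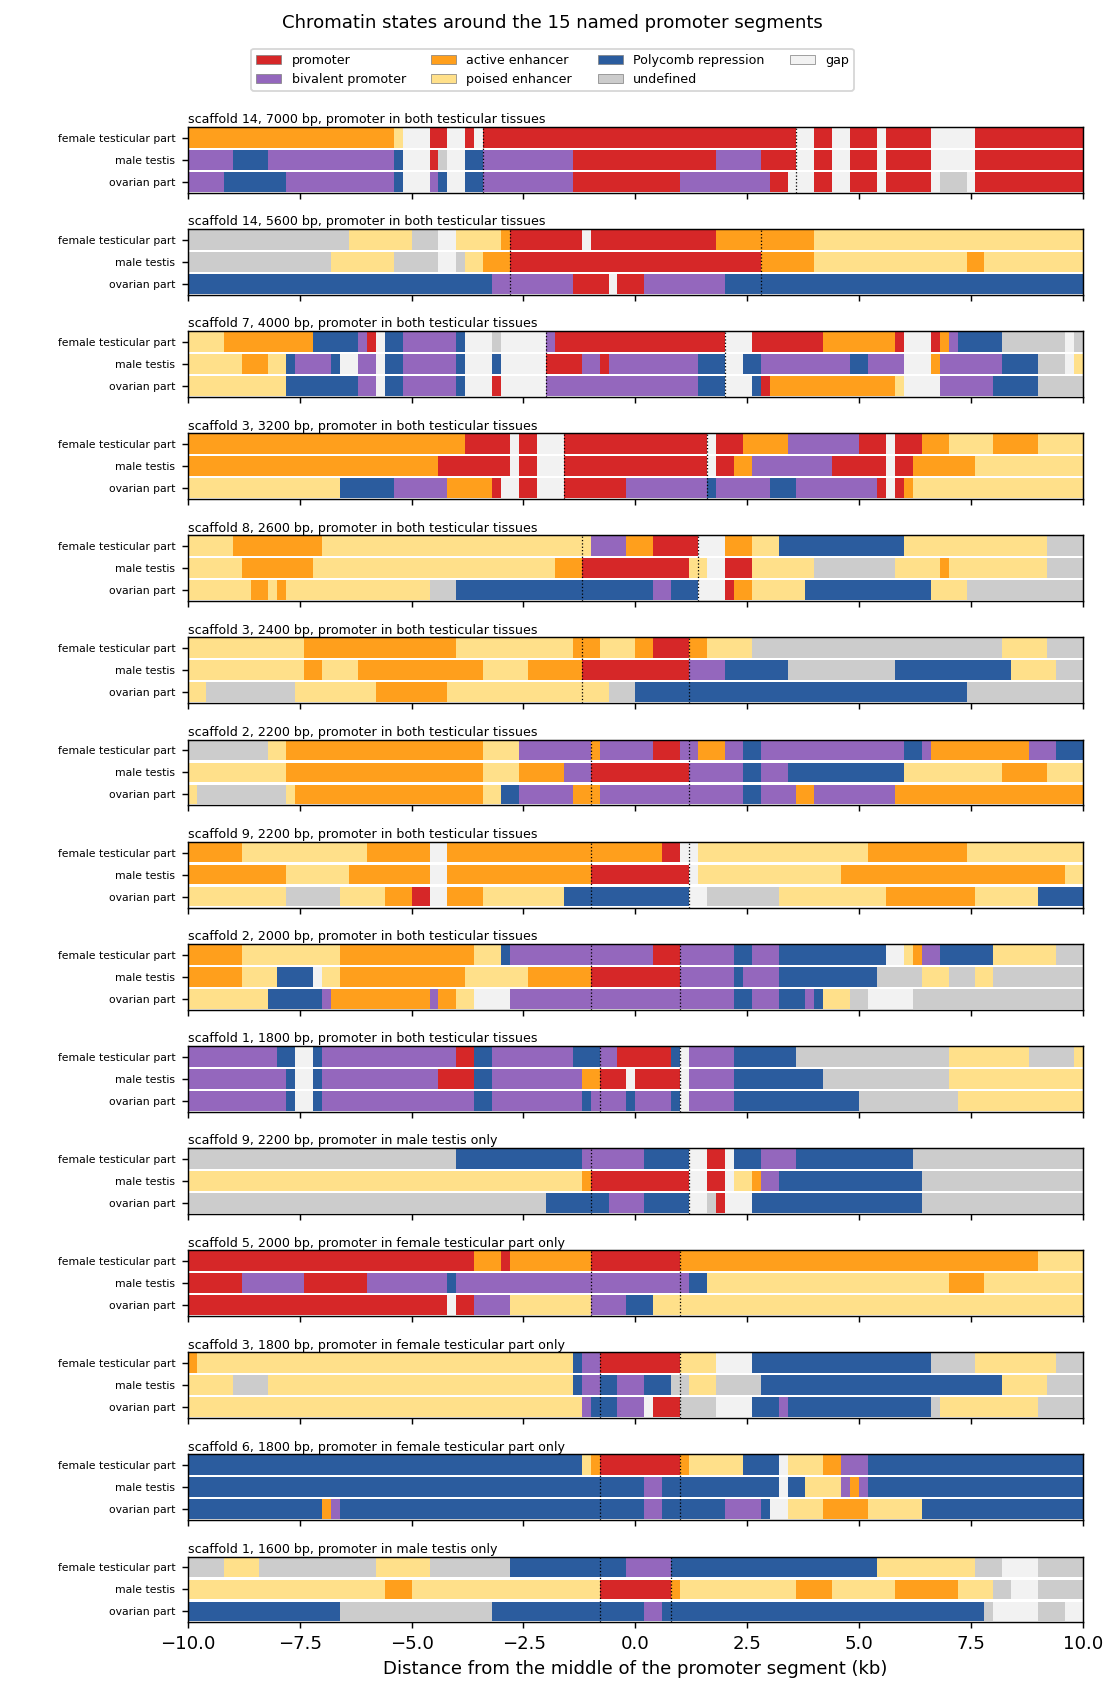
Each panel shows the chromatin state of 200 bp bins from 10 kb before to 10 kb after the middle of a named segment, with the female testicular part on top, the male testis in the middle and the ovarian part below; dotted lines mark the segment. On scaffold 14 the segment of 5600 bp sits in an ovarian Polycomb stretch that neither testicular tissue has, while on scaffold 6 the segment of 1800 bp is flanked by Polycomb state in all 3 tissues and is promoter in the female testicular part alone.

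The surroundings of the 218 segments carried Polycomb states in all 3 tissues. These flanks adjoin the bins chosen for ovarian bivalent or Polycomb state, and states extend over neighbouring bins. Their values, and the contrast with other promoters, are therefore not independent of the choice and are a description. In the 10 kb on each side, bivalent and Polycomb states together covered 38.0% of bases in the female testicular part, 41.1% in the male testis and 46.0% in the ovarian part. Around the other testicular promoters the same states covered 5.17%, 7.99% and 3.80% in that tissue order. Around the 605 ovarian promoters bivalent or Polycomb in the female testicular part they covered 39.7%, 43.2% and 23.6%. Around the 747 bivalent or Polycomb in the male testis they covered 35.6%, 49.1% and 24.7%. Polycomb states in the flanks were therefore not particular to the 218. Active states covered 10.3% of the flanks in the female testicular part and 11.2% in the male testis, against 5.45% in the ovarian part; around the other testicular promoters they covered 19.0%, 21.1% and 16.9%. The gap state, which the files do not define, took 5.82%, 6.29% and 6.42% of the flanks of the 218 segments and 6.10%, 6.20% and 6.23% of those of the others, in that tissue order.

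Close to the segments, next to the chosen bins, the tissues lay further apart, which is likewise a description. Within 2 kb of the edges, bivalent and Polycomb states covered 51.4% in the female testicular part and 48.4% in the male testis, against 63.8% in the ovarian part. Within 50 kb they covered 23.6%, 26.9% and 27.8% in the same order, still above the 5.16%, 8.17% and 4.42% around the other testicular promoters. Segment by segment, the flanks of 10 kb held more active state in the female testicular part than in the ovarian part in 113 of 218, less in 44 and the same amount in 61. For the male testis against the ovarian part these counts were 126, 44 and 48.

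Active state in the flanks was highest in the tissue in which the promoter was called. States run on from bin to bin, so flanks that adjoin chosen segments are not independent of the choice. Around the 61 segments of the female testicular part alone, active states covered 10.6% in the female testicular part, 6.01% in the male testis and 5.03% in the ovarian part, and bivalent and Polycomb states 42.6%, 54.7% and 51.7%. Around the 64 of the male testis alone, active states covered 5.71% in the female testicular part, 12.5% in the male testis and 4.63% in the ovarian part, and bivalent and Polycomb states 40.8%, 33.6% and 39.4%. Around the 93 shared segments active states covered 13.2% and 13.7% in the female testicular part and the male testis, against 6.30% in the ovarian part.

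**Figure D3:**
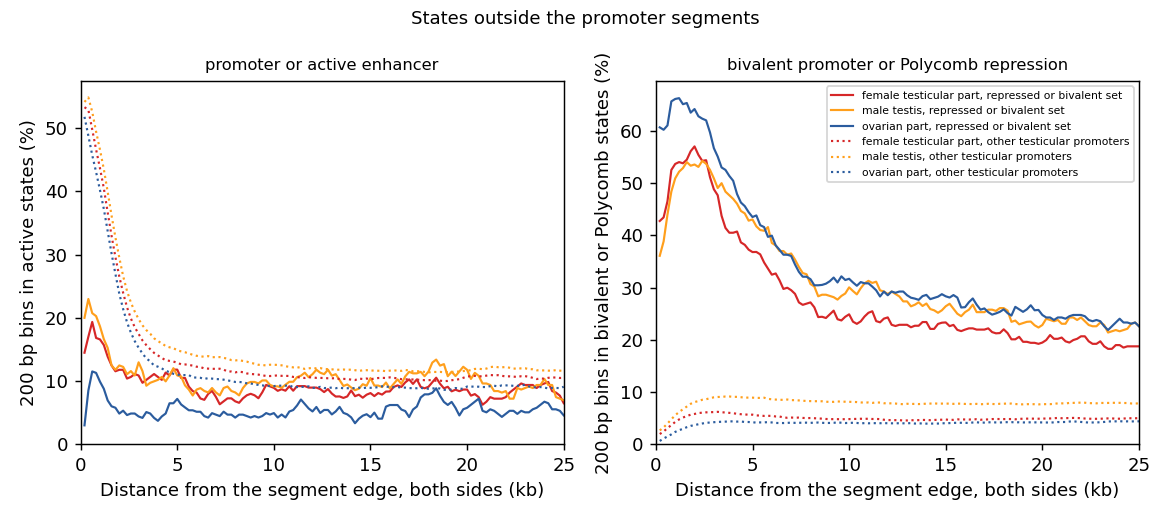
Percent of 200 bp bins in promoter or active enhancer state (left) and in bivalent promoter or Polycomb state (right) against the distance from the segment edge in kb, both sides pooled, for the 218 segments (solid) and 14989 other testicular promoters (dotted) in the female testicular part, the male testis and the ovarian part. Polycomb states stay more frequent around the 218 segments than around the others out to 25 kb in all 3 tissues. The flanks adjoin the chosen bins, so this contrast is a description.

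The ovarian Polycomb domain around the segments was mostly longer than the segments. It holds the ovarian bins by which they were chosen, so its length is a description. Where a segment touches several unbroken ovarian runs of bivalent and Polycomb bins, the longest was taken, and likewise for the opposite change below. This run had a median length of 4000 bp (exact binomial 95% interval of the median 3400 to 5000), with a range of 200 to 40200 bp. Over all 26812 such runs of at least 400 bp the median was 2800 bp. A longer run is more likely to touch a segment, and the longest was taken, so these medians are no like pair. For the opposite change, ovarian promoters bivalent or Polycomb (below, repressed) in the female testicular part lay in runs of that tissue with a median of 4000 bp (n = 605), and those repressed in the male testis in runs with a median of 4600 bp (n = 747).

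Outside the segments, most bases of these domains were in the same states in the testicular tissues. Where a segment touched several runs, only the longest was kept, which gave 210 different runs for the 218 segments. Of the 1.18 Mb in these runs and outside the segments, 69.9% was bivalent or Polycomb in the female testicular part and 70.6% in the male testis. In the 26605 other ovarian runs the shares were 62.1% and 72.3%. Shorter runs that also touch a segment can be among these others, so the split is not complete. The runs with these promoters differed more in the active states, which took 5.03% of the remainder in the female testicular part and 6.13% in the male testis, against 0.488% and 0.791% of the other runs. They also held more bivalent state, 27% and 30.4% against 10.8% and 11.7%. These runs were picked for touching a testicular promoter segment, and states run on from bin to bin. The contrast with the other runs is therefore not independent of the choice and is a description. In the runs of the 64 segments of the male testis alone, 54.1% of the remainder was bivalent or Polycomb in the male testis, against 78.5% in the female testicular part. In those of the 61 segments of the female testicular part alone the shares were 73.9% in the female testicular part and 90.5% in the male testis.

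An ovarian promoter lay near some of the segments. The like share for the other testicular promoters is not given here. In the ovarian part, promoter state covered 4.17% of the flanks of 2 kb around the 218 segments, against 11.6% around the others. In 50 segments some bins were still promoter in the ovarian part, and in 97 (44.5% [38.1 to 51.1]), these 50 included, an ovarian promoter bin lay in or within 2 kb of the segment. No ovarian promoter lay within 10 kb of 111 segments (50.9% [44.3 to 57.5]). The share without one was 35 of 93 (37.6% [28.5 to 47.8]) for shared segments, 32 of 61 (52.5% [40.2 to 64.5]) for the female testicular part alone and 44 of 64 (68.75% [56.6 to 78.8]) for the male testis alone. In the opposite direction, 372 of 605 ovarian promoters repressed in the female testicular part (61.5% [57.5 to 65.3]) had no promoter of that tissue within 10 kb. The matching share for the 138 segments of the female testicular part was 64 of 138, 46.4% [38.3 to 54.7]. For the male testis the shares were 75 of 141 (53.2% [45.0 to 61.2]) and, in the opposite direction, 464 of 747 (62.1% [58.6 to 65.5]), with intervals that overlap.

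A strict subset, defined after the values had been seen, leaves aside the mixed cases. It holds the 27 segments that were promoter over at least 50% in both testicular tissues, bivalent or Polycomb over 100% in the ovarian part, and more than 10 kb from any ovarian promoter. They lay on 11 scaffolds and were 400 to 1800 bp long. Medians over the 27 were taken separately for each tissue and state. Active states covered 5% of the flanks of 10 kb in the female testicular part, 6% in the male testis and 0% in the ovarian part. Bivalent and Polycomb states covered 27%, 36% and 66% in that tissue order. The choice fixes the promoter state of the ovarian flanks at 0%. It also asks for ovarian bivalent or Polycomb state up to the segment edges, which the flanks adjoin. All these values are therefore a description. The longest was the segment of scaffold 1 at 31976401 named above, followed by 4 of 1000 bp. Of these, the segment of scaffold 9 at 55317601 to 55318600 had 10 distal enhancers of the testicular tissues within 50 kb, and its flanks were bivalent or Polycomb over 0% in the female testicular part and the male testis against 25% in the ovarian part. That of scaffold 6 at 29897801 to 29898800 had none, and its flanks carried 37% of these states in the female testicular part and 41% in the male testis, against 83% in the ovarian part.

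Distal active enhancers of the ovarian part were scarce near these promoters. As a distal active enhancer counted each stretch of active enhancer state of 400 bp or longer that kept a distance of over 2 kb to promoters, bivalent ones included; it was assigned to 1 tissue when the other had no active base there. Of the 138 segments of the female testicular part, 72 (52.2% [43.9 to 60.3]) had an enhancer of the female testicular part against the ovarian part within 50 kb, and 19 (13.8% [8.99 to 20.5]) had one of the ovarian part against the female testicular part. For the other 13413 promoters of the female testicular part the shares were 51.7% [50.9 to 52.6] and 43.7% [42.9 to 44.6]. The shares with an enhancer of the female testicular part differed by less than the counting interval, and those with one of the ovarian part by more. Over the genome there were 19032 enhancers of the female testicular part against the ovarian part and 10203 of the reverse kind.

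The male testis gave a similar pair of values. Of its 141 segments, 83 (58.9% [50.6 to 66.6]) had an enhancer of the male testis against the ovarian part within 50 kb, and 26 (18.4% [12.9 to 25.6]) had one of the ovarian part against the male testis, while the other 13355 testis promoters gave 58.4% and 44.5%. Of the ovarian promoters bivalent or Polycomb in the female testicular part, 156 of 605 (25.8%) had an enhancer of the female testicular part and 258 (42.6%) one of the ovarian part. With both testicular tissues pooled, 134 of the 218 segments (61.5%) had an enhancer of testicular tissue alone within 50 kb. An enhancer of the ovarian part alone lay as near to 27 (12.4%). Among the other testicular promoters these shares were 68.2% and 34.3%. The pooled classes were unequal, with 29249 enhancers of testicular tissue alone and 7568 of the ovarian part alone over the genome. Pooled testicular and ovarian shares are therefore no like pair. Of the 605 ovarian promoters above, 258 (42.6%) had a pooled testicular enhancer and 216 (35.7%) a pooled ovarian one. That order is the reverse of the one without pooling. The flanks of the 218 segments also had little active state in the ovarian part, 5.45% against 16.9% around the others. Bivalent promoter state covered 15.3% of these ovarian flanks against 0.612%, and enhancers within 2 kb of bivalent promoters were not counted. The part of either in the enhancer counts was not tested.

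**Figure D4:**
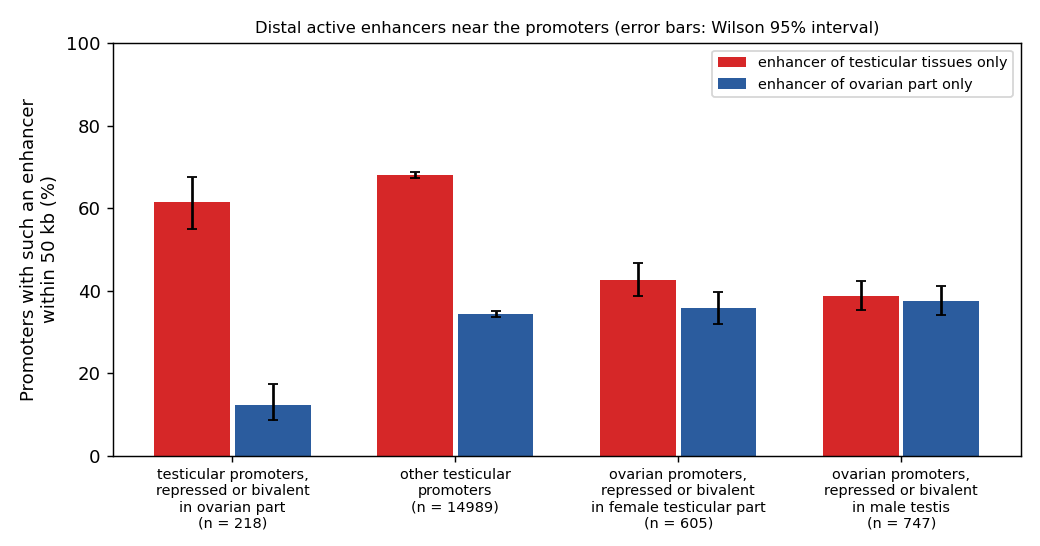
Bars give the percent of promoters with a distal active enhancer within 50 kb that was active in testicular tissue alone (red) or in the ovarian part alone (blue), for the 218 segments, the other testicular promoters and ovarian promoters repressed or bivalent in the female testicular part or the male testis; error bars are Wilson 95% intervals. The blue bar of the 218 segments, 12.4%, is the lowest, and its interval does not overlap those of the other blue bars. Red and blue bars are no like pair, since the pooled classes held 29249 testicular and 7568 ovarian enhancers over the genome.

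Positions were uneven. On the 17 scaffolds of at least 1 Mb, the share of testicular promoters bivalent or Polycomb in the ovarian part ran from 1 of 870 (0.115%) on scaffold 17 to 45 of 1246 (3.61% [2.71 to 4.80]) on scaffold 2, and 4 of 23 (17.4% [6.98 to 37.1]) on the small scaffold 19. Scaffold 6 had 20 of 649 (3.08%), scaffold 1 had 20 of 835 (2.40%) and scaffold 16 had 2 of 767 (0.261%). Scaffolds under 1 Mb together held 11 of 453 (2.43% [1.36 to 4.30]).

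Of the 45 segments of scaffold 2, 30 lay in 3 adjoining windows of 5 Mb from position 30000001 to 45000000, a stretch chosen after the counts had been seen. They are 30 of the 209 testicular promoters there (14.4% [10.2 to 19.8]), against 188 of 14998 elsewhere (1.25% [1.09 to 1.44]). The opposite change was frequent in the same stretch. Of 132 ovarian promoters there, 26 (19.7%) were bivalent or Polycomb in the female testicular part and 21 (15.9%) in the male testis, against 3.71% and 4.66% elsewhere. The bivalent promoter state covered 18% of the stretch in the female testicular part, 16.6% in the male testis and 16.0% in the ovarian part, against 0.5%, 0.581% and 0.531% on the other large scaffolds. The Polycomb state covered 29.5%, 27.2% and 17.7% of it, against 4.66%, 7.79% and 4.91% on the other large scaffolds. The gap state covered 16.6%, 19.2% and 20.4% of it, against 5.35%, 5.60% and 5.39%, and its part in the counts of the stretch was not tested. Of its 30 segments, 16 were promoter in the male testis alone, 12 in both testicular tissues and 2 in the female testicular part alone; elsewhere 48 of 188 were of the male testis alone and 59 of the female testicular part alone.

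**Figure D5:**
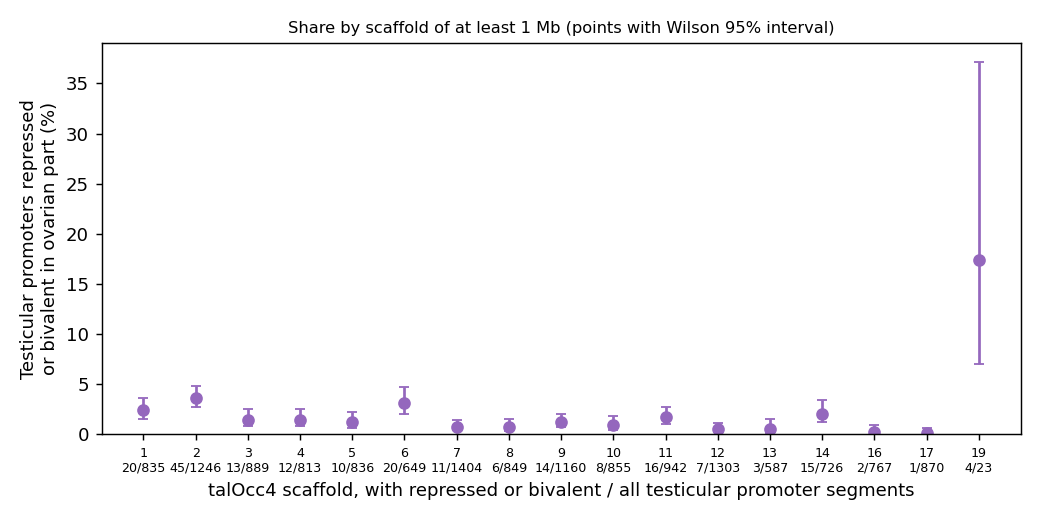
Points give the percent of testicular promoter segments that were bivalent or Polycomb in the ovarian part on each scaffold of at least 1 Mb, with Wilson 95% intervals and the counts under each scaffold number. Scaffold 2, with 45 of 1246, is highest among the scaffolds with more than 23 promoters, and scaffolds 16 and 17 are lowest.

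Some segments lay close together. Of the 218, 52 (23.9% [18.7 to 29.9]) had another within 50 kb. Of the ovarian promoters repressed in the female testicular part, 170 of 605 (28.1%) had another of their set as near. For the male testis it was 248 of 747 (33.2%), so closeness was not particular to the 218. Those sets are larger, and the part of their size in these shares was not tested. The 52 segments formed 23 groups, of which 4 had at least 3 segments. The spans of the groups below include the bases by which the segments were chosen. Their state values are therefore a description. The largest lay in the stretch of scaffold 2, where 5 segments of the male testis alone fell between 35297401 and 35374800. Over this span active states covered 6.46% in the female testicular part and 23.8% in the male testis, against 17.6% in the ovarian part, so the male testis and the ovarian part were both more active here than the female testicular part. On scaffold 1, 3 segments of the female testicular part alone fell between 104310201 and 104339400. There active states covered 27.4% in the female testicular part, 0% in the male testis and 0.685% in the ovarian part, and bivalent and Polycomb states 56.2%, 95.9% and 92.5%. On scaffold 3, the 3 shared segments between 80220401 and 80227600 lay in a span that was active over 75% in the female testicular part and 72.2% in the male testis, against 22.2% in the ovarian part. The group on scaffold 14, between 8960001 and 8993800, holds the longest segment of all and was active over 80.5% in the female testicular part, 61.5% in the male testis and 56.8% in the ovarian part.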

How the data were processed

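The study's 24 ChIP-seq libraries entered through the 3 chromatin state segmentations that the authors deposited, 1 per tissue, each made from 8 libraries. The submitters' processing notes name STAR 2.6.1d; for the mole tables, neither the tool nor the link of states and marks, the gap state or the depth is given in the sources used here. State names were kept, in bins of 200 bp on talOcc4, and positions count from 1. The files carry no score per segment.

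Promoter segments of the female testicular part and the male testis of at least 400 bp were merged where they overlapped and kept by the 50% rule, with Python 3.11.15, numpy 2.4.6 and scipy 1.17.1. The rule was tested on simulated segmentations. Flanks leave out the segment itself. No test between tissues was run, since each has 1 segmentation. Members, lists, limits and the regions named by length were chosen with earlier results of these data known. The rule names the 10 longest segments shared by both testicular tissues, the 5 longest others and groups of at least 3 within 50 kb. The marker gene lists planned with it were not used, because the gene models and the gene table used here lie on other assemblies, and no position was carried over. The mouse segmentations were not analysed here. Alternatives changed the minimum length, the ovarian share, the scaffolds, the source tissue, the flank and the joining of runs.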

Additional observations from a re-analysis of the deposited data

How the results depend on the processing

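The count of 218 segments follows the rule closely. It was 361 with no minimum length, 47 with 1000 bp, 145 when 100% of the bases had to be bivalent or Polycomb in the ovarian part, 379 with scaffolds 15 and 18 kept, 138 from the female testicular part alone and 141 from the male testis alone. The share mostly bivalent in the ovarian part (45.0%) was 59.6% with 1000 bp. The share with promoter state in both testicular tissues (42.7%) was 27.7% with no minimum, 57.4% with 1000 bp, 55.8% from the female testicular part alone and 54.6% from the male testis alone. Active flank coverage of 10.3% in the female testicular part and 11.2% in the male testis was 15% and 17.1% with flanks of 2 kb and 17.8% and 17.2% with 1000 bp; with scaffolds 15 and 18 it was 6.70% in the female testicular part. Bivalent and Polycomb flank coverage of 38.0% in the female testicular part, 41.1% in the male testis and 46.0% in the ovarian part was 51.4%, 48.4% and 63.8% with flanks of 2 kb and 23.6%, 26.9% and 27.8% with 50 kb. With scaffolds 15 and 18 it was 56.5%, 28.7% and 62.8%. With 1000 bp it was 31.2% in the female testicular part and 34% in the male testis, and from the male testis alone it was 33.3% in the male testis. The median ovarian run of 4000 bp was 5400 bp when breaks of up to 400 bp were joined, 5200 bp at a share of 80%, 5200 bp at 100% and 7000 bp with scaffolds 15 and 18. A flank value was taken to have moved when it left the Wilson interval computed with 1 unit per segment. For the count of segments the limit was a factor of 1.5. At an ovarian share of at least 80% the count fell from 218 to 149, which lay within that wide limit. The other 74 values stayed within these limits, among them all values without scaffold 2, where the count was 173, and all with adjoining segments merged; both of these were chosen after seeing the data. No paired analysis was possible because each tissue has 1 segmentation that combines its replicates. Without replicates or depth per segment, the error of a single state call is unknown.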
